A study of Mus musculus with 2 samples.

Results

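The genes described here are 5 keratins (Krt5, Krt7, Krt8, Krt18 and Krt19) and 5 uroplakins (Upk1a, Upk1b, Upk2, Upk3a and Upk3b) of the mouse, chosen by name and matched to the tables by gene ID. They are 10 of the 43346 genes in the deposited tables. Total RNA was sequenced from embryonic kidney of strain B6NCrl at day 14.5, in 2 libraries that the labels number as biological replicates of a single group. Each library was made from 10 ng of RNA longer than 200 nt out of 2 kidneys of 1 pup, and the pups were collected 2 days apart; a further label gives the sex of both samples as pooled male and female, which 1 pup cannot be. No second condition, genotype or treatment was measured, so the data give levels and the spread between 2 libraries and allow no test between groups. Depth was 29718428 and 29204212 expected counts (reads assigned to a feature by estimation), spike-ins included. Of these 28429080 and 27758872 fell on genes, and 10825 and 11122 on the 10 genes described here.

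Keratins are the intermediate filament proteins of epithelia. A filament needs a type I chain and a type II chain in equal amounts, and unpaired chains are degraded, so simple epithelia such as the ureteric bud and collecting duct make both types, chiefly keratin 8 with keratin 18 and, in ducts, keratins 7 and 19. Keratin 5 is the type II keratin of basal cells in stratified epithelia, including the basal layer of the urothelium. Uroplakins are the membrane proteins of the plaques that seal the urothelium of the renal pelvis, ureter and bladder. The tetraspanins uroplakin 1a and 1b leave the endoplasmic reticulum paired with uroplakin 2 and uroplakin 3a (or 3b), respectively.

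On the mm10 assembly, 4 of the 5 keratins lie within 1 stretch of chromosome 15. Krt7 (ENSMUSG00000023039.12) is at 101411043 to 101430313, Krt5 (ENSMUSG00000061527.6) at 101707070 to 101712898, Krt8 (ENSMUSG00000049382.9) at 101996698 to 102004482 and Krt18 (ENSMUSG00000023043.6) at 102028180 to 102032027. Krt8 and Krt18 are neighbours that point away from each other, with 23.7 kb between their starts. Krt19 (ENSMUSG00000020911.10) lies in the type I cluster on chromosome 11, 100140810 to 100148665. Upk3a is also on chromosome 15, 85017141 to 85022547, while Upk1a is on chromosome 7 (30603092 to 30612847), Upk1b on chromosome 16 (38773184 to 38800328), Upk2 on chromosome 9 (44452715 to 44454976) and Upk3b on chromosome 5 (136038496 to 136046487).

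RefSeq (GRCm38.p6) promoter windows, from 250 bases before to 50 bases after the annotated start, were found for 7 of the 10 genes. The bases before the start are shown for the most abundant keratin pair (Krt8, chr15:102004483-102004592, minus strand; Krt18, chr15:102027966-102028179, plus strand), the ductal Krt7 (chr15:101412153-101412401, plus strand), the barely detected Krt5 (chr15:101712906-101713155, minus strand) and the most abundant uroplakin, Upk3a (chr15:85016891-85017140, plus strand). They run 5′ to 3′ and stop before the RefSeq start or the first exon of the principal GENCODE transcript, whichever comes first. The Krt7 stretch precedes Krt7-201 and overlaps an exon of the noncoding Krt7-205 and of the antisense gene Gm671. Capitals mark matches to GGGCGG or CCAAT on either strand.
Krt8: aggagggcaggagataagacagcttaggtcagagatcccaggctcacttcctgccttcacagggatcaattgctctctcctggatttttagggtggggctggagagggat
Krt18: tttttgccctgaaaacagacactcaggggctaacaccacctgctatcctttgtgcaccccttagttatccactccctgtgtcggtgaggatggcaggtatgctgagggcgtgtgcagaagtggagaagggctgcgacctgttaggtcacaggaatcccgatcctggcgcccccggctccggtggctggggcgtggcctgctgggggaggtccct
Krt7: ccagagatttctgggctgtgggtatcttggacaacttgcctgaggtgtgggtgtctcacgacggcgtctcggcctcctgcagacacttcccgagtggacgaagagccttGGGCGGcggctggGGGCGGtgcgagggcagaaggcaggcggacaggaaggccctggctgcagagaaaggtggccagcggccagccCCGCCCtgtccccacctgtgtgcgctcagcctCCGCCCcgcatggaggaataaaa
Krt5: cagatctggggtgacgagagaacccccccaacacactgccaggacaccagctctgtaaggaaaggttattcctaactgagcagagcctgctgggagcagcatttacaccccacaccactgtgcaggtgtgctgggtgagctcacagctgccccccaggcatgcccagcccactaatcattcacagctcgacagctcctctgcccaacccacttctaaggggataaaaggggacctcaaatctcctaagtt
Upk3a: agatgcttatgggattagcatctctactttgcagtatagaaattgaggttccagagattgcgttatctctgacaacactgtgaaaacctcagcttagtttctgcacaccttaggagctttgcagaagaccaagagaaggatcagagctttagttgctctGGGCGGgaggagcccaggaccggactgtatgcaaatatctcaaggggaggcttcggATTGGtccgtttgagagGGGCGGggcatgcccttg

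The windows were searched on both strands for GGGCGG (the GC box, present in 35.7% of all 32851 RefSeq windows of 300 bases), CCAAT (37.4%), TATAAA (13.6%) and TGANTCA (an AP-1 type site, 7.81%). Krt7 held 4 GGGCGG matches, starting 141, 128, 56 and 24 bases before the RefSeq start. Upk3a held GGGCGG 91 and 18 bases before its start and CCAAT 35 bases before it. The window of Krt8 held TATAAA on both strands, overlapping, 3 and 1 bases before the RefSeq start and therefore within the first exon of GENCODE and outside the bases shown. None of these 4 motifs was found in the windows of Krt5, Krt18, Upk1a and Upk3b; a missing match concerns these letters in this window alone. Krt8, Krt18 and Krt5 windows had similar base composition, with 58.0%, 61.3% and 57.7% G or C, and Krt7 stood higher at 66.3%.

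The 5 keratins share the end of their central helix. The 12 codons across that end, from the principal GENCODE M21 transcripts, are shown to compare the chains; capitals mark 3 codons that encode the same residues in all 5.
Krt5: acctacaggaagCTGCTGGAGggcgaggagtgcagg
Krt7: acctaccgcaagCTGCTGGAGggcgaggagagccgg
Krt8: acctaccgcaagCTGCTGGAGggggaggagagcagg
Krt18: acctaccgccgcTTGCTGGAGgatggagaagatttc
Krt19: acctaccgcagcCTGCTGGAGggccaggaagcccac

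These stretches lie at chr15:101708151-101708910 (minus strand, Krt5), chr15:101423456-101427089 (plus, Krt7), chr15:101997718-101997887 (minus, Krt8), chr15:102031482-102031517 (plus, Krt18) and chr11:100140946-100140981 (minus, Krt19). In the type II genes Krt5, Krt7 and Krt8 the 36 bases are split by an intron, and in the type I genes Krt18 and Krt19 they lie in 1 exon. Krt7 and Krt8 were identical at 34 of 36 bases here, Krt8 and Krt18 at 21, and Krt18 and Krt19 at 25. Over whole coding sequences, identity of aligned bases was 74.9% for Krt5 and Krt7, 70.0% for Krt7 and Krt8, 60.5% for Krt18 and Krt19, and 55.1% for Krt8 and Krt18. Alignments of a tetraspanin uroplakin with an unrelated one gave 48.1% to 59.8%, a range that the type II pairs exceed, that Krt8 with Krt18 does not, and that also holds Upk1a with Upk1b (57.4%) and Upk3a with Upk3b (50.9%). Every deposited gene count of these 10 genes was a whole number. Annotated sequences matching a member at 90% identity or more over 300 nt or more were the pseudogenes Krt8-ps (98.6% over 941 nt of Krt8) and Gm5200 (90.5% over 1267 nt of Krt18), both not among the features counted here, so any reads from them cannot be told apart from those of Krt8 and Krt18.

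Krt8 was the most abundant member. Its level was 157 TPM in replicate 1 and 146 TPM in replicate 2 (mean 152 ± 7.96, SD, n = 2; TPM is a gene's length-corrected share of all transcripts), from 5241 and 5616 counts, which placed it at rank 891 of 21474 protein-coding genes. In whole kidney, fewer cells that hold a transcript and less of it per cell cannot be told apart, here or for any level below. Krt7, the type II keratin of ducts, was at 33.6 and 24.0 TPM (28.8 ± 6.75). Krt5 had 2 counts in replicate 1 and 0 in replicate 2, that is 0.050 and 0 TPM, where 3 counts would give 0.0735 and 0.0637 TPM. The 3 type II members were thus well apart in both libraries, in the order Krt8, Krt7, Krt5. Krt8 exceeded Krt5 3212-fold in replicate 1 (95% counting interval 889 to 26528) and at least 2294-fold in replicate 2, with 3 counts set for Krt5 in that library. Krt5 RNA thus stayed under 3 counts in both libraries. Krt7, Krt8 and Krt5 overlap genes on the opposite strand (Gm671, Gm36026 and Gm44323) that are not among the features counted, so antisense reads cannot be told apart from theirs if counting ignored strand.

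Of the type I members, Krt18 stood at 132 and 108 TPM (120.0 ± 17.2, n = 2) and Krt19, the smallest keratin, at 19.4 and 24.2 TPM (21.8 ± 3.42). On TPM Krt18 was higher in replicate 1 and Krt19 in replicate 2. Krt18 took 87.2% and 81.7% of the summed type I level of the members, and Krt8 took 82.4% and 85.9% of the type II level. In the order of levels, Krt8 lay above Krt18 in each library. Krt7 and Krt19 could not be placed apart, because Krt7 was 1.73 times Krt19 in replicate 1 (95% counting interval 1.56 to 1.93) and 0.993 times in replicate 2 (0.903 to 1.09).

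**Figure D1:**
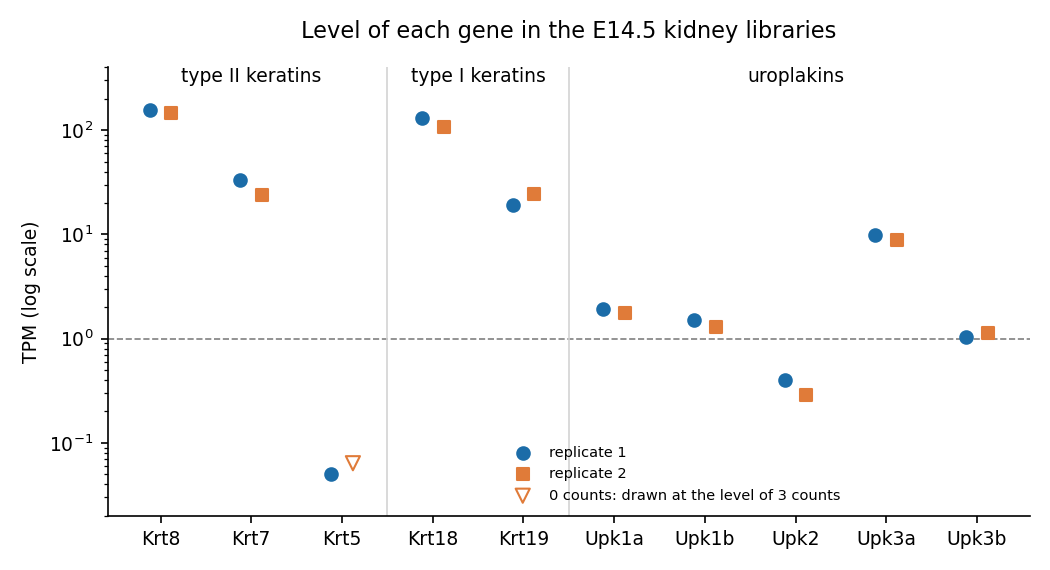
TPM of each gene in replicate 1 (circles) and replicate 2 (squares) on a log axis; the dashed line is 1 TPM and the open triangle marks Krt5 in replicate 2, which had 0 counts. Krt8 and Krt18 sit above 100 TPM, Krt7 and Krt19 between 19.4 and 33.6 TPM, and Upk3a stands above the other uroplakins in both libraries.

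Type II and type I totals were of similar size. The type II members summed to 191 and 170 TPM (181 ± 14.7) and the type I members to 152 and 132 TPM (142 ± 13.8). Type II exceeded type I 1.26-fold in replicate 1 and 1.29-fold in replicate 2 (1.27 ± 0.0202, n = 2), so the excess went the same way in both libraries and by nearly the same amount, although both totals were lower in replicate 2 on TPM. Krt8 alone exceeded Krt18 1.19-fold (95% counting interval 1.14 to 1.24) and 1.36-fold (1.30 to 1.42), a wider spread than that of the totals. With 2 libraries an exact paired permutation test cannot go below p = 0.50, so these ratios carry no test. On counts without correction for length the ratio was 1.79 ± 0.0611, and the level comparison therefore rests on the lengths of the annotated transcripts.

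The excess of type II shrank when every keratin gene was summed. All 25 type II genes came to 195 and 173 TPM and all 28 type I genes to 189 and 163 TPM, a ratio of 1.03 and 1.06. The difference from the member totals lay mostly in 2 type I genes outside the members. Krt23 was at 26.2 and 18.5 TPM (22.4 ± 5.43) and Krt10, a keratin known from the suprabasal epidermis, at 7.42 and 9.04 TPM (8.23 ± 1.15). Krt23 and Krt19 did not differ beyond their spread. Krt10 overlaps the antisense gene Gm11940 (15 and 11 counts), which was counted as a feature of its own; without strand, reads of the overlap cannot be told apart. The other keratins at a mean of 1 TPM or more were Krt80 (type II, overlapped by the antisense gene Gm35853, which is not among the features counted) at 1.72 ± 0.255 TPM and Krt36 (type I) at 1.15 ± 0.0141 TPM.

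**Figure D2:**
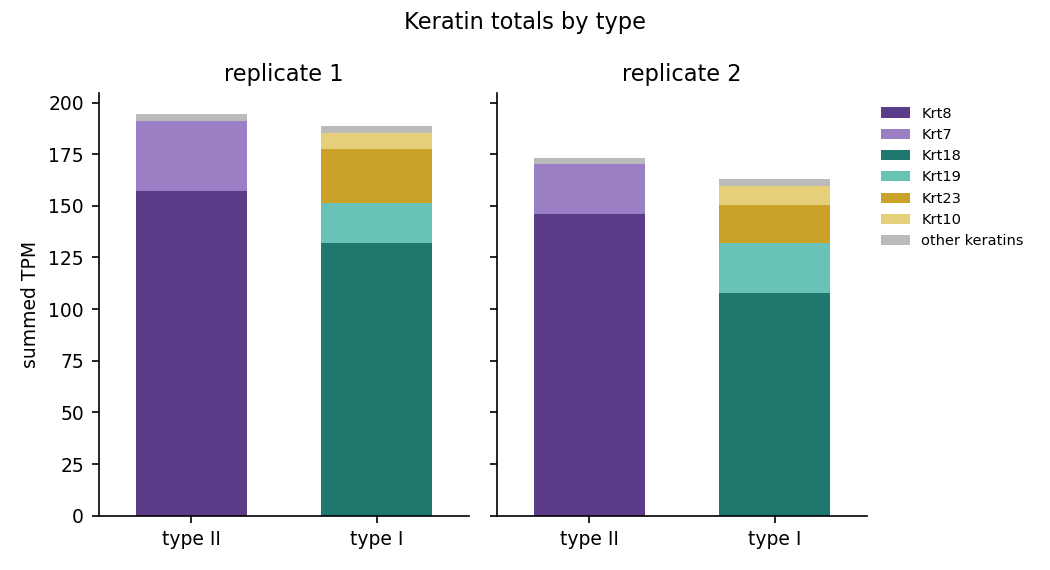
Stacked bars of summed TPM (linear axis from 0) of all type II and all type I keratin genes in each library, coloured by gene. Krt8 and Krt18 form most of each bar, and Krt23 and Krt10 bring the type I bar close to the type II bar (189 against 195 TPM in replicate 1, 163 against 173 TPM in replicate 2).

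Most of the keratin family was at or near 0. Of 53 keratin genes, 8 reached 1 TPM in both libraries, 33 had a mean under 0.1 TPM and 26 had 0 counts in both. The 5 members held 89.4% and 89.8% of the summed keratin level. On chromosome 15, 22 keratin genes lie between Krt7 and Krt8, Krt5 among them. None of these 22 reached 1 TPM in both libraries, 14 had 0 counts in both, and together they summed to 1.78 and 1.63 TPM, the highest being Krt1 at 0.675 ± 0.148 TPM. The genes of this chromosome at 1 TPM or more in both libraries thus lay at the ends of the row, with Krt7 and the far lower Krt80 at one end and Krt8 and Krt18 at the other. On chromosome 11 the detected genes Krt10, Krt23, Krt36 and Krt19 were the 7th, 10th, 19th and 22nd of 27 keratin genes, with undetected genes on either side of each.

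**Figure D3:**
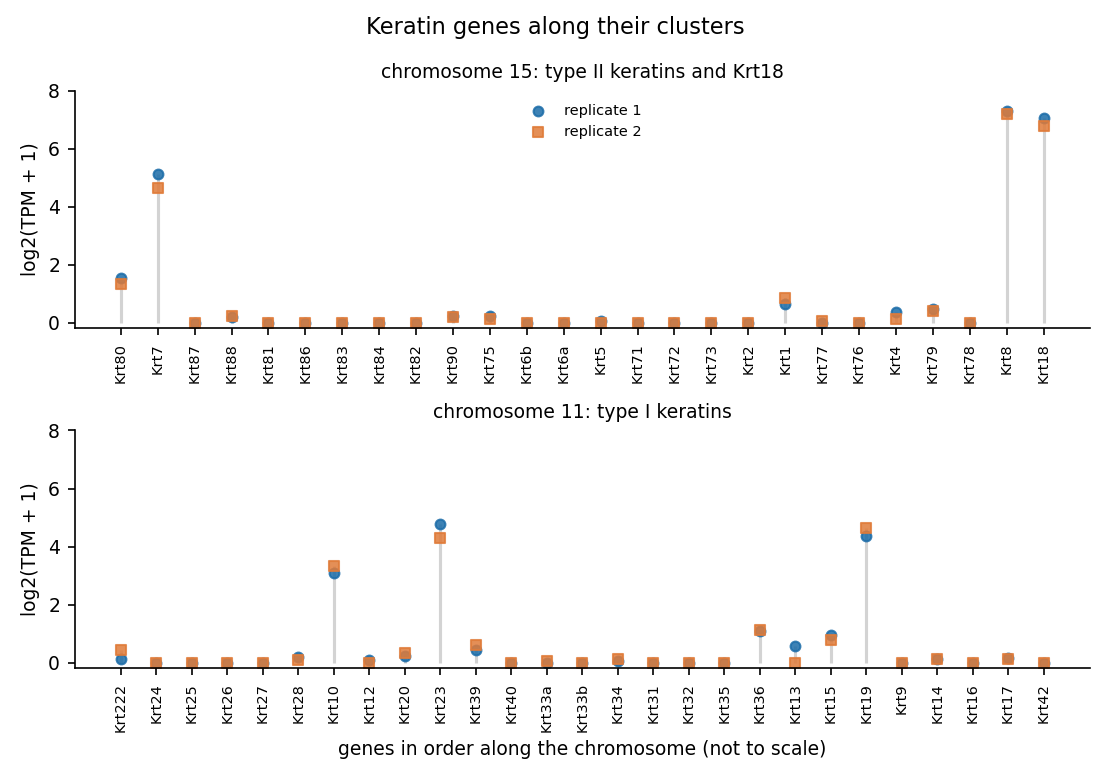
log2(TPM + 1) of every annotated keratin gene in replicate 1 (circles) and replicate 2 (squares), in chromosomal order and not to scale. On chromosome 15 levels are high at both ends and near 0 for the 22 genes between Krt7 and Krt8; on chromosome 11 Krt10, Krt23 and Krt19 stand out singly.

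Krt7 and Krt19 are the members with several annotated transcripts. Krt7-201, the full-length coding transcript of 4094 nt in 9 exons, was at 13.2 and 13.0 TPM (13.1 ± 0.163, n = 2), closer between the libraries than the gene as a whole. The remaining Krt7 transcripts summed to 20.3 TPM in replicate 1 and 11.01 TPM in replicate 2. By these estimates, the lower Krt7 level of replicate 2 lay in that sum and not in Krt7-201. Within the sum, Krt7-203 (1.35 and 1.96 TPM), Krt7-205 (0 and 0.1 TPM) and a transcript without an M21 name (1.23 and 1.40 TPM) were higher in replicate 2. Krt7-204, a 642-nt model with an incomplete coding sequence whose start lies 1299 nt upstream of that of Krt7-201, was at 14.5 and 6.81 TPM; the deposited intervals of these estimates, whose level is not given, were 10.9 to 17.7 and 4.15 to 9.50 TPM and did not overlap. It shares 443 nt of exon with Krt7-201 and has 199 nt of its own, so its level is an estimate from partly shared reads. The intron-retaining Krt7-202 was also lower in replicate 2, at 0.740 against 3.21 TPM, and its deposited intervals did not overlap either. Accordingly, the length that the tables assign to the gene rose from 2280 to 2595 nt, while its counts were 1428 and 1350.

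Krt19-201, the coding transcript of 1576 nt, was at 12.6 and 14.3 TPM (13.5 ± 1.19) and took 65.2% and 59.1% of the gene. The noncoding Krt19-203 of 823 nt, of which 789 nt are shared with Krt19-201, was at 6.73 and 9.88 TPM, and Krt19-202 had 0 counts in both libraries. Both expressed transcripts read higher in replicate 2, and their deposited intervals overlapped between the libraries. At gene level the deposited intervals of Krt19, 16.8 to 21.3 and 21.5 to 26.3 TPM, did not overlap. Those of the genes Krt7, Krt8 and Krt18 did not overlap either. The share of all genes without overlap was not counted. Between coding transcripts, Krt7-201 was 1.05 times Krt19-201 in replicate 1 and 0.909 times in replicate 2. This comparison of coding transcripts was chosen after seeing the data, and at gene level the ratio was 1.73 and 0.993, as given above. The type II to type I ratio over the principal transcripts was 1.18 and 1.30 (1.24 ± 0.0881). Krt5, Krt8, Krt18 and the 5 uroplakins have 1 transcript each in the tables.

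**Figure D4:**
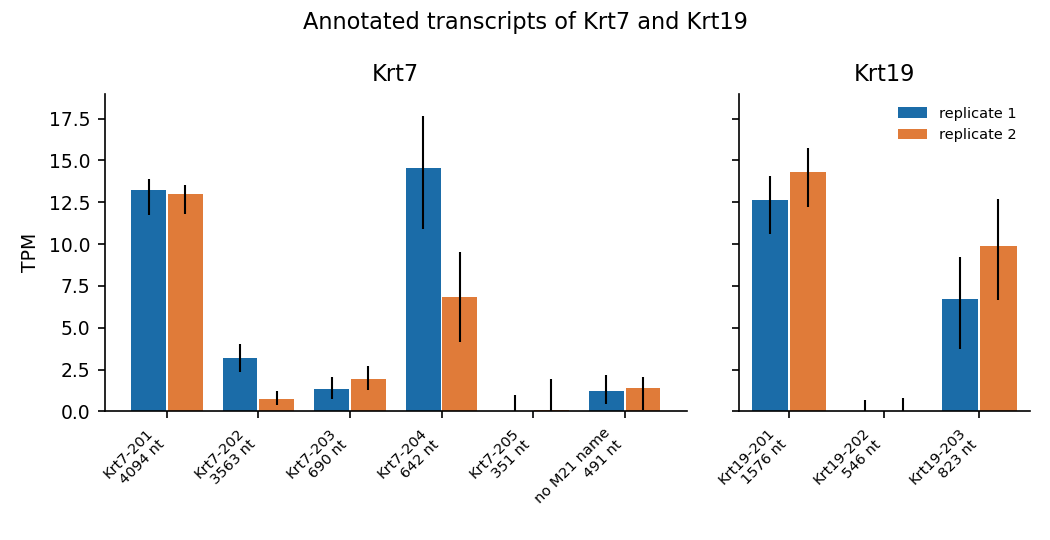
TPM of each transcript of Krt7 and Krt19 in both libraries (bars from 0), with the deposited interval of each estimate as a vertical line and the transcript length below its name. Krt7-201 is level between the libraries while Krt7-204 is at 14.5 TPM in replicate 1 and 6.81 TPM in replicate 2.

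Uroplakins were far below keratins. Together the 5 genes came to 14.7 and 13.3 TPM, 4.12% and 4.23% of the summed level of the 10 genes, so the keratins exceeded them 23.3-fold and 22.7-fold. Upk3a, whose protein spans the membrane once and carries the large outer domain of the plaque, was at 9.87 and 8.86 TPM (9.37 ± 0.714; 194 and 201 counts) and made up 67.1% and 66.4% of the uroplakin level. The tetraspanin genes Upk1a and Upk1b were at 1.91 and 1.76 TPM (1.84 ± 0.106; 45 and 48 counts) and at 1.5 and 1.3 TPM (1.40 ± 0.141; 49 counts each). Upk3b, a relative of Upk3a that is also expressed by mesothelium, was at 1.03 and 1.13 TPM (1.08 ± 0.0707; 45 and 57 counts). Upk2, the partner of uroplakin 1a, was lowest at 0.400 and 0.290 TPM (0.345 ± 0.0778), from 6 and 5 counts. Upk3a was the highest and Upk2 the lowest in both libraries. The neighbours Upk1a and Upk1b could not be placed apart by counting error, since their ratio was 1.27 (95% counting interval 0.827 to 1.94) and 1.35 (0.890 to 2.06), nor could Upk1b and Upk3b, where Upk3b was 0.687 times Upk1b (0.445 to 1.04) and 0.869 times (0.580 to 1.29).

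The partners of the known uroplakin pairs were not at equal levels. Upk3a exceeded its partner Upk1b 6.58-fold in replicate 1 (95% counting interval 4.78 to 9.18) and 6.82-fold in replicate 2 (4.96 to 9.50). In the other pair the tetraspanin was the higher: Upk1a exceeded Upk2 4.78-fold (2.04 to 13.8) and 6.07-fold (2.46 to 19.8). Upk3a exceeded Upk2, the other partner that is not a tetraspanin, 24.7-fold (11.2 to 68.6) and 30.6-fold (13.0 to 96.2). Each of these intervals excludes equal levels in each library, and the directions were the same in both. They cover counting error alone.

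In all, 8 of the 10 genes were detected at 1 TPM or more in both libraries, the exceptions being Krt5 and Upk2. The deposited intervals of Upk3b in both libraries, and of Upk1b in replicate 2, reach below 1 TPM. Over all 21474 protein-coding genes 59.0% were detected by the same rule.

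Of 18 listed genes of the urothelial programme 9 passed 1 TPM in both libraries. Over all protein-coding genes 59.0% did so, and a count near that share is no result about the list. The median level was 1.01 TPM, and the list summed to 179 and 138 TPM. Cldn4, a tight junction gene, led at 57.6 ± 3.52 TPM, followed by the transcription factor Gata3 at 56.7 ± 17.0 TPM, which the ureteric tree also expresses, and Elf3 at 18.97 ± 3.06 TPM. Trp63, the master regulator of stratified epithelia, was at 0.640 and 0.150 TPM. Krt20, the keratin of mature umbrella cells, was at 0.170 and 0.270 TPM, and Psca was lowest at 0.065 ± 0.00707 TPM. Upk3bl, the gene next to Upk3b, was at 1.82 and 1.06 TPM, between Upk1a and Upk1b in replicate 1 and below both in replicate 2. Krt5, Krt14 and Trp63, known from basal urothelium, were thus each under 1 TPM in both libraries. Of the genes known from umbrella cells, Krt20 and Upk2 were under 1 TPM, and Upk1a, Upk1b, Upk3a and Upk3b were above it. For Upk3b and Upk1b this is within error. Their deposited intervals reach down to 0.740 and 0.843 TPM for Upk3b, and to 0.953 TPM for Upk1b in replicate 2.

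Markers of other cells that could carry these transcripts were measured beside them. Each count of detected genes here stands against 59.0% of all protein-coding genes detected by the same rule. Of 14 ureteric epithelium genes all 14 were detected, with a summed level of 772 and 634 TPM, led by Epcam at 169 ± 11.1, Calb1 at 166 ± 2.47 and Cdh16 at 93.8 ± 25.3 TPM; Tfap2a was lowest at 2.84 ± 0.622 TPM. Cdh1 (E-cadherin) was at 69.5 and 23.5 TPM, the 1 gene of this list 2-fold or more apart on TPM + 1. Krt8, Krt18 and Epcam were not. Of all genes at 5 TPM or more in the higher library, 5.56% were that far apart. At that share, 1 gene is no result about the list. Ret, at 11.06 and 5.07 TPM, was past 2-fold only without the pseudocount. Of 10 matched mesothelial genes, 3 of them members, 8 were detected and the list summed to 511 and 374 TPM, most of it from Aldh1a2 at 272 ± 60.4, Wt1 at 105 ± 33.4 and Rspo1 at 32.7 ± 3.66 TPM, of which Aldh1a2 and Wt1 are also expressed by kidney stroma and nephron progenitors. The defining mesothelial gene Msln was at 2.03 and 1.10 TPM, about the level of Upk1b and Upk3b, and Bnc1 was lowest at 0.085 ± 0.0212 TPM. Of 10 epidermal genes only Krt10 was detected, the list summed to 10.8 and 11.9 TPM, Krt15 and Krt1 came next at 0.820 ± 0.141 and 0.675 ± 0.148 TPM, and Dsg1a had 0 counts. Of 7 genes of gut and oviduct epithelium 3 were detected: Pax8 at 89.7 ± 29.2 TPM, which the nephron itself expresses, Vil1 at 3.69 ± 2.28 TPM and Ovgp1 at 1.61 ± 0.0849 TPM. Vil1, at 5.30 and 2.07 TPM, was the 1 gene of that list 2-fold or more apart on TPM + 1. Cdx2, which defines gut, had 0 counts. How much each cell type contributed to the keratin and uroplakin levels was not tested.

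Partners of keratin filaments were all below Krt8 and Krt18, and Jup was above Krt7 and Krt19. Of 14 matched desmosome and linker genes 12 reached 1 TPM in both libraries, against 59.0% of all protein-coding genes. The median level of the list was 4.91 TPM. Jup (plakoglobin) was highest at 57.9 ± 11.5 TPM, followed by the linkers Dst at 26.2 ± 9.78 and Plec at 24.5 ± 3.77 TPM, and Pkp1, of stratified epithelia, was lowest at 0.060 ± 0.0283 TPM. Among 16 other intermediate filament genes 7 were detected, against the same 59.0%. Vim, the filament of mesenchyme, stood at 360 ± 34.6 TPM, and the 5 keratins together came to 0.891 and 0.901 times its level. The lamins Lmna and Lmnb1 were at 37.97 ± 8.87 and 37.9 ± 0.523 TPM, and Nefh was lowest at 0.170 TPM in each library.

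The spread of the members between the libraries was read against that of all genes. None of the 5 at 5 TPM or more in the higher library differed by 2-fold or more on TPM + 1, a size reached by 5.56% of the 11480 genes at that level, a share at which none of 5 genes is no result about them. For the 8 members whose mean reached 1 TPM the median log2((TPM + 1) ratio), replicate 2 over replicate 1, was -0.11, with -0.47 for Krt7 at one end and 0.31 for Krt19 at the other. The median over 15075 genes was -0.26, so most genes read lower in replicate 2 on this scale, and the median absolute log2 ratio was 0.34 for all genes, 0.30 for the 4 keratins and 0.098 for the 4 uroplakins, of which 3 lie under 2 TPM, where the pseudocount shrinks a ratio. The direction depends on the scale. On TPM 6 of the 8 were lower in replicate 2, where the median of all genes was -0.26. On counts scaled by TMM all 8 were higher, by 0.021 to 0.58. That scaling moves the median of all genes by 0.26, to 0.00086. The share of all genes in each direction was not counted, so neither count is a result about the members. Krt19 and Upk3b were higher in replicate 2 on both scales. Relative to the mean, the SD was 5.25% for Krt8, 14.4% for Krt18, 15.7% for Krt19 and 23.4% for Krt7, against a median of 17.6% over 8177 genes between 10 and 200 TPM.

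**Figure D5:**
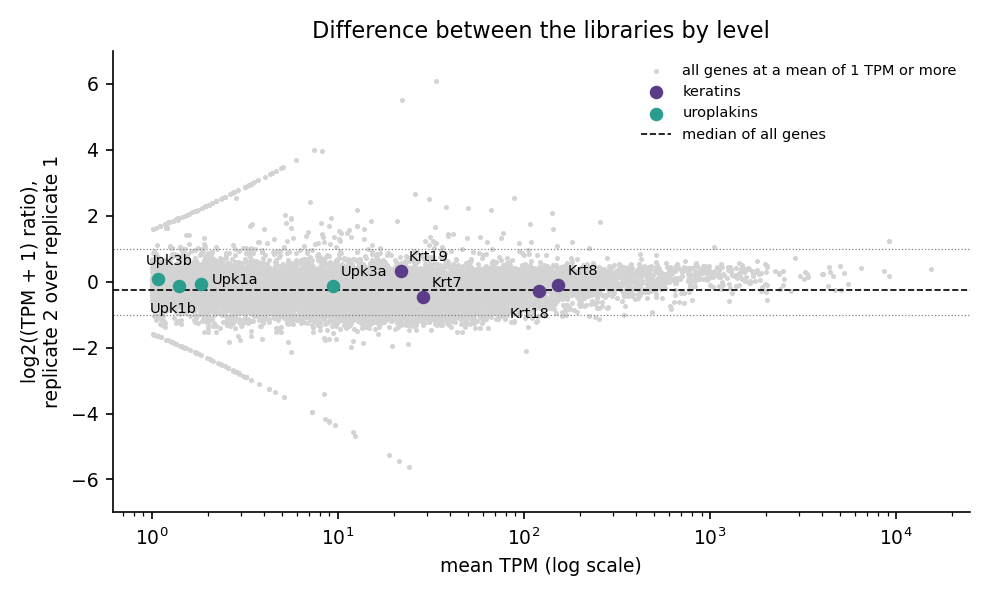
log2((TPM + 1) ratio) of replicate 2 over replicate 1 against mean TPM (log axis) for 15075 genes at a mean of at least 1 TPM (grey), with the 4 keratins and 4 uroplakins above that level in colour; the dashed line is the median of all genes and the dotted lines mark 2-fold. All 8 lie within 2-fold, from Krt7 at -0.47 to Krt19 at 0.31. On TMM-scaled counts, not drawn, all 8 lie above 0, where the median of all genes is 0.00086.

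The median log2 ratio on TPM was further from 0 for the linker genes (-0.57) than for the 4 keratins (-0.20). On TPM 12 of 14 were lower in replicate 2, with a median log2 ratio of -0.57 against -0.26 over all genes. On TMM-scaled counts 12 of 14 were lower, with a median of -0.52 against 0.00086. The share of all genes lower in replicate 2 was not counted, so neither count is a result about the linker genes. Dsc2, at 7.36 and 1.88 TPM, was the 1 gene of this list past 2-fold on TPM + 1. Dsc2 was picked out after its value was seen. Of all genes at 5 TPM or more in the higher library, 5.56% were that far apart, so 1 gene is no result. Without the pseudocount Dsp (6.9 and 3.4 TPM), Tchp (14.05 and 6.99 TPM) and Ppl (1.91 and 0.95 TPM) were also just past 2-fold. Transcript length moved with the ratio over all genes, the median being -0.025 for 6504 genes under 2000 nt, -0.40 for 5899 genes from 2000 to 4000 nt and -0.53 for 2672 genes of 4000 nt or more. By the lengths of replicate 1 the members had a median of 1584.5 nt and the linker genes of 3686 nt; the part of length in these differences was not tested.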

How the data were processed

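Per the labels, total RNA of 2 mouse kidney samples was sequenced with added spike-ins. The submitters quantified reads on mm10 with GENCODE M4, per the text deposited with the tables; the aligner, quantification tool and strand setting: not given in the sources used here. Per the file headers, the deposited expected counts are estimated reads per feature, the deposited TPM (also as a posterior mean) and FPKM are corrected for effective length, the deposited interval bounds are a signal on the TPM scale, and the deposited isoform percent is each transcript's share of its gene's TPM. Symbols, coordinates and exons came from GENCODE M21, on the same assembly, so transcript models can differ.

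The members and lists were chosen with earlier results of these data known, and all 10 members are named. Of other lists the 3 highest and the lowest genes are named, and of the keratin family those at a mean of 1 TPM or more. Trp63, Krt20, Msln, Wt1, Vim, Epcam and Cdh1 are named besides. Krt14, Upk3bl, Dsc2, Dsp, Tchp, Ppl and Ret were added after their values were seen. Detection was 1 TPM in both libraries; 3 counts were taken as the limit that 0 counts allow. Ratio intervals are exact 95% Clopper-Pearson intervals of counts, rescaled by effective length, and cover counting error only. Differences between libraries used a pseudocount of 1 TPM; with 1 sample on each side there is no test. The size rule was also run on simulated libraries that held no shift by transcript length, unlike these data. No result here rests on that run. Keratin type followed the gene number. TMM factors came from edgeR 4.0.16 (R 4.3.3) on rounded counts; alignments used BLAST 2.17.0 and Biopython 1.88; other steps used Python 3.11.15, pandas 2.3.3 and scipy 1.17.1. Alternatives covered units, scaling, floors, pseudocounts and the genes or transcripts summed.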

Additional observations from a re-analysis of the deposited data

How the results depend on the processing

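The type II to type I ratio of 1.27 stayed above 1 under every alternative run: 1.79 on expected counts, 1.05 over all keratin genes, 1.32 over protein-coding transcripts, 1.24 over principal transcripts (an alternative chosen after seeing the data), and 1.26 to 1.29 with 1 replicate left out. The summed level of the 10 genes, 336 TPM, read 239 as FPKM and 395 TPM after rescaling without mitochondrial, haemoglobin and spike-in features, which changes the unit of every gene alike. The number of detected members was 8 at floors of 0.5 and 1 TPM and with either replicate left out, 6 on FPKM and 5 at a floor of 5 TPM. The share of all protein-coding genes (59.0%) is given for 1 TPM in both libraries only, so the other counts have no background. The uroplakin share of 4.17% was 3.18% on expected counts, 3.86% without Upk3b, and 4.12 to 4.23% with 1 replicate left out. The median log2 ratio between libraries, -0.11 on TPM, was 0.18 on TMM-scaled counts, so its direction depends on the scaling. The count of members 2-fold apart was 0 under all 5 alternatives. Depth limits Upk2 (6 and 5 counts) and Krt5 (2 and 0 counts). No paired analysis was possible because no second group of samples exists to pair with the first; type II and type I totals of the same library are compared as ratios without a test.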
